A study of Rattus norvegicus with 12 samples.

Results

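The respiratory chain genes described here are 106 of the 21071 genes in the deposited table. They are the protein-coding genes that lie on the mitochondrial chromosome or whose names mark them as parts of the respiratory complexes (names that begin with Ndufa, Ndufb, Ndufc, Ndufs, Ndufv, Uqcr, Cox4 to Cox8 or Atp5, and Sdha, Sdhb, Sdhc and Sdhd). The rule uses no measured value, though it was set with earlier results of these data known. Of them 93 are encoded in the nucleus and 13 in the mitochondrial genome. The nuclear genes comprise 37 of complex I, 8 complex I assembly factors (Ndufaf), 4 of complex II, 9 of complex III, 19 of complex IV, 15 of complex V and the complex V inhibitor Atp5if1. Ndufa4 and its paralog Ndufa4l2 were counted with complex IV, where Ndufa4 is now placed. The mitochondrial genes comprise 7 of complex I, 1 of complex III, 3 of complex IV and 2 of complex V. All of these but Cox7b2, which had 1 count in the 12 libraries together, passed the filter on low counts, so 92 nuclear and 13 mitochondrial genes were tested. Cox6b1, Ndufa10l1, Ndufv3 and Uqcrb each stand in the table under more than 1 identifier, and values of such copies are uncertain because they can share reads.

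The respiratory chain passes electrons from NADH (complex I) and succinate (complex II) through ubiquinone to complex III, on to cytochrome c and then to oxygen at complex IV. Complexes I, III and IV pump protons across the inner mitochondrial membrane, and complex V, the ATP synthase, uses the gradient. Complex II is made from nuclear genes only, whereas the other complexes join nuclear subunits with core subunits made in the mitochondrion. The nuclear mRNAs come from many separate promoters, whereas the mitochondrial mRNAs are cut from long shared transcripts. Cells of the nucleus pulposus, the core of the intervertebral disc, live in a tissue without blood vessels and rely largely on glycolysis. Erastin blocks the cystine transporter that feeds glutathione synthesis and is used to set off ferroptosis, a cell death driven by lipid peroxidation, in which mitochondria are a source of peroxides.

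The samples were cultured rat nucleus pulposus cells in 4 groups of 3 libraries: with NPPC-Exo, with miR-Exo, and with erastin added to each. NPPC-Exo are exosomes, small secreted vesicles, and miR-Exo are, per the series' design text, NPPC-Exo from cells that overexpress miR-221-3p; the labels do not spell out NPPC. All groups received exosomes, at 50 µg/mL per the treatment protocol, so no group shows untreated cells or erastin alone. The protocol gives erastin as 0.1 to 5 µM for 48 h, with no dose for a single library, and the headers of the table call the erastin groups "Model". No genotype, strain, age, sex or disc level of the animals is given in the labels used here. Whether a group's libraries stem from different animals or cultures is not in the labels, and p-values therefore cover only the spread between these libraries, which may be technical.

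Libraries held 54616827 to 68865720 counts. Of 18 nucleus pulposus markers 12 were in the table, and their summed FPKM (a level scaled for gene length and library total) ran from 1008 to 1172 with NPPC-Exo, 1107 to 1274 with miR-Exo, 289 to 307 when erastin was added to NPPC-Exo and 266 to 282 when it was added to miR-Exo. Members of this list went both ways. The matrix genes Acan (742 to 902 FPKM without erastin and 118 to 144 FPKM with it) and Col2a1 (154 to 256 FPKM and 13.7 to 57.1 FPKM) were lower in every library with erastin, whereas the glucose transporter Slc2a1 (23.9 to 32.5 FPKM and 41.5 to 53.7 FPKM) and Cd24 (3.57 to 6.36 FPKM and 7.84 to 13.5 FPKM) were higher in every one. Krt18 was at or near 0. Summed FPKM of 8 of 12 muscle genes ran from 54.4 to 55.9 with NPPC-Exo, 35.6 to 38.0 with miR-Exo, 8.62 to 12.0 with erastin and NPPC-Exo and 6.81 to 9.74 with erastin and miR-Exo. Of these, Acta1 was at 31.3 FPKM or more without erastin and 0.97 to 6.78 FPKM with it, whereas Myl1 was at 0.23 FPKM or less without erastin and reached 5.2 FPKM with erastin and miR-Exo. Summed FPKM of 7 of 11 myeloid genes, mostly Cd14, ran from 4.06 to 4.83, 5.01 to 5.79, 8.05 to 11.0 and 15.4 to 19.3 in the same order of groups. The part of these cell markers in the results below was not tested. Endothelial, erythroid and adipocyte lists stayed under 1 FPKM. In the first principal component of the spread inside groups, NPPC-Exo replicate 1 (-0.580) and miR-Exo replicate 1 (-0.457) lay farthest out, followed by NPPC-Exo replicate 3 (0.375) on the other side, and erastin with miR-Exo replicates 3 (-0.266) and 2 (0.264) lay about equally far on either side. The 3 libraries lowest in this component (NPPC-Exo replicate 1, miR-Exo replicate 1 and erastin with miR-Exo replicate 3) were left out together as an alternative chosen after the data were seen. The component comes from these same data, so fits without these libraries are no separate support for any result. In bulk RNA, fewer cells of a type and less RNA per cell cannot be told apart.

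Most mitochondrial mRNAs were far above the nuclear members in level. Per length, Mt-co1, the catalytic subunit of complex IV, averaged 10012 FPKM with NPPC-Exo, and Mt-nd3 and Mt-nd6, parts of the membrane arm of complex I, were the lowest of the mitochondrial mRNAs at 188 and 261 FPKM. Among nuclear members the highest mean FPKM with NPPC-Exo were those of Atp5f1b (252) and Atp5f1a (162), which form the catalytic head of the ATP synthase, Cox4i1 (183), Atp5mc2 (112), which encodes the proton-carrying ring, and Sdhc (101). In CPM (counts scaled to a common, TMM-scaled library total, not to length), the mean level of nuclear members ran from 0.295 to 551 with a median of 21.1. The order was not the same in every group: with erastin and miR-Exo Atp5f1a averaged 228 FPKM and Cox4i1 202 FPKM.

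Both genomes took a larger share of the counts with erastin. On this basis of unscaled library totals the median gene of those tested rose too, by 0.30 (log2) under NPPC-Exo and 0.33 under miR-Exo. A larger share alone therefore does not set these genes apart from the others. The mitochondrial mRNAs held 3.47%, 3.50% and 3.55% of all counts with NPPC-Exo and 3.90%, 3.90% and 3.89% with erastin and NPPC-Exo. They held 3.45%, 3.73% and 3.74% with miR-Exo, and 4.91%, 4.82% and 4.43% when erastin was added to it. Neither pair of groups overlapped, and the highest libraries were those with erastin and miR-Exo. The nuclear members together held 0.335% ± 0.021 (SD, n = 3) of the counts with NPPC-Exo, 0.372% ± 0.014 (SD, n = 3) with miR-Exo, 0.386% ± 0.005 (SD, n = 3) with erastin and NPPC-Exo and 0.420% ± 0.022 (SD, n = 3) with erastin and miR-Exo. With 3 against 3 libraries an exact permutation test cannot fall below a two-sided p of 0.10, so these shares are given without a test. The ratio of mitochondrial to nuclear member counts, which no scaling of libraries can change, was 10.5 ± 0.55 with NPPC-Exo, 9.81 ± 0.57 with miR-Exo, 10.1 ± 0.15 with erastin and NPPC-Exo and 11.3 ± 1.2 with erastin and miR-Exo (SD, n = 3 each). The libraries of these groups overlapped, from 9.33 to 12.2 in all, so no difference between the genomes larger than the spread of libraries was seen in this ratio.

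**Figure D1:**
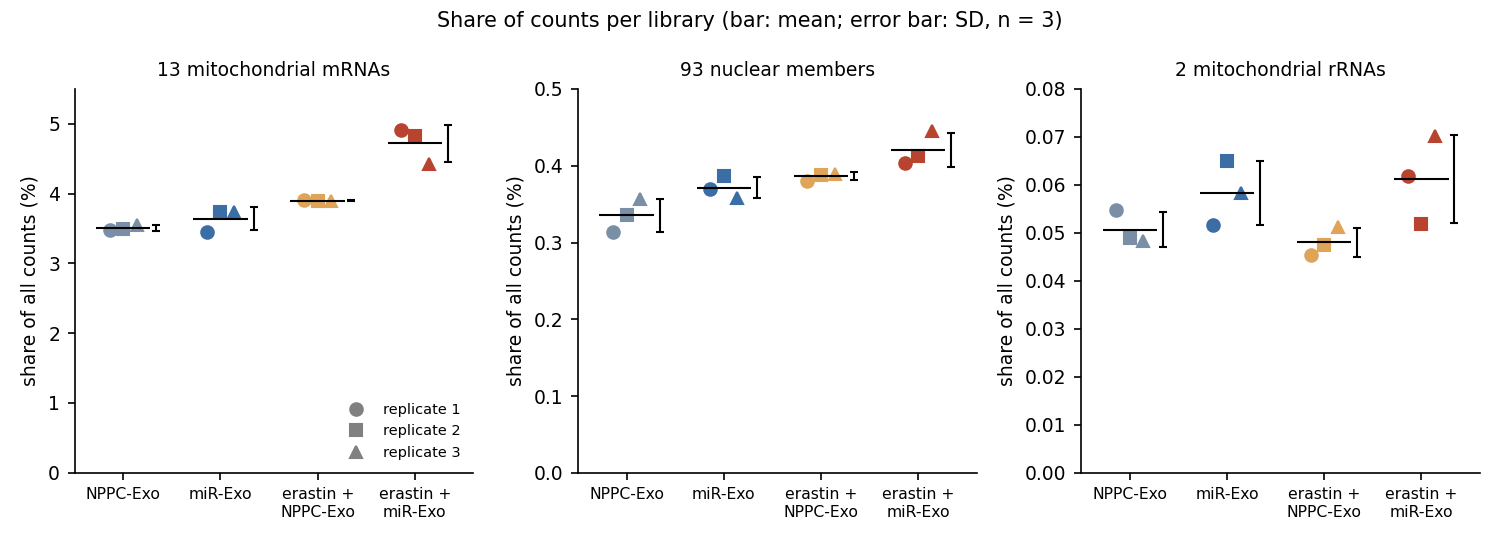
Share of all counts (%) per library held by the 13 mitochondrial mRNAs, the 93 nuclear members and the 2 mitochondrial rRNAs, by group; points are libraries, the bar is the mean and the error bar the SD of 3 libraries. The 6 libraries with erastin lie above the 6 without it for the mitochondrial mRNAs (3.89% or more against 3.74% or less). The rRNA shares overlap between libraries with and without erastin under each kind of exosome. With erastin, the rRNA shares under miR-Exo (0.0518% or more) lie above those under NPPC-Exo (0.0513% or less).

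The make-up of the mitochondrial mRNA changed with erastin, and this is likewise free of the scaling of libraries. The 7 complex I mRNAs (Mt-nd) made up 18.7% ± 0.51 of mitochondrial mRNA counts with NPPC-Exo, 20.6% ± 0.33 with miR-Exo, 22.4% ± 0.45 with erastin and NPPC-Exo and 23.2% ± 0.069 with erastin and miR-Exo (SD, n = 3 each). No library of a group overlapped those of another group in this share. The 3 complex IV mRNAs (Mt-co) went the other way, from 60.2% ± 0.45 and 59.2% ± 0.23 without erastin to 56.8% ± 0.83 and 56.5% ± 0.14 with it, for NPPC-Exo and miR-Exo in turn. The complex V mRNAs (Mt-atp) were 10.2% ± 0.094 and 10.2% ± 0.31 under NPPC-Exo, without and with erastin, and 9.49% ± 0.13 and 9.62% ± 0.15 under miR-Exo.

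Each mRNA was also tested with the summed mitochondrial mRNA as the library total, a scaling chosen after the data had been seen. Relative to that sum, erastin raised 8 of the 13 mRNAs and lowered 2 under NPPC-Exo, and raised 6 and lowered 2 under miR-Exo. The sum is made of these same 13 mRNAs, with Mt-co1 at 42.5% to 46.4% of it in single libraries. A rise of some of them therefore lowers the values of the others. How many of all genes passed on this scale is not given here. Mt-nd1 rose by 0.41 (log2, SE 0.04, adjusted p = 9.6e-07) and 0.31 (SE 0.04, adjusted p = 1.3e-05) under NPPC-Exo and miR-Exo. Mt-nd3 rose by 0.44 (SE 0.10) and 0.33 (SE 0.10) and Mt-co2, the subunit that takes electrons from cytochrome c, by 0.20 (SE 0.05) and 0.17 (SE 0.05). Mt-nd4, Mt-nd4l and Mt-nd5 also rose in both comparisons, by 0.12 to 0.28. Mt-co3 changed by -0.22 (SE 0.04) and -0.16 (SE 0.04), and Mt-co1 by -0.09 (SE 0.03, adjusted p = 0.018) and -0.08 (SE 0.03, adjusted p = 0.041). The interaction passed the test for none of the 13 on this scale, where the erastin changes differed by -0.13 to 0.06 between the kinds of exosome.

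**Figure D2:**
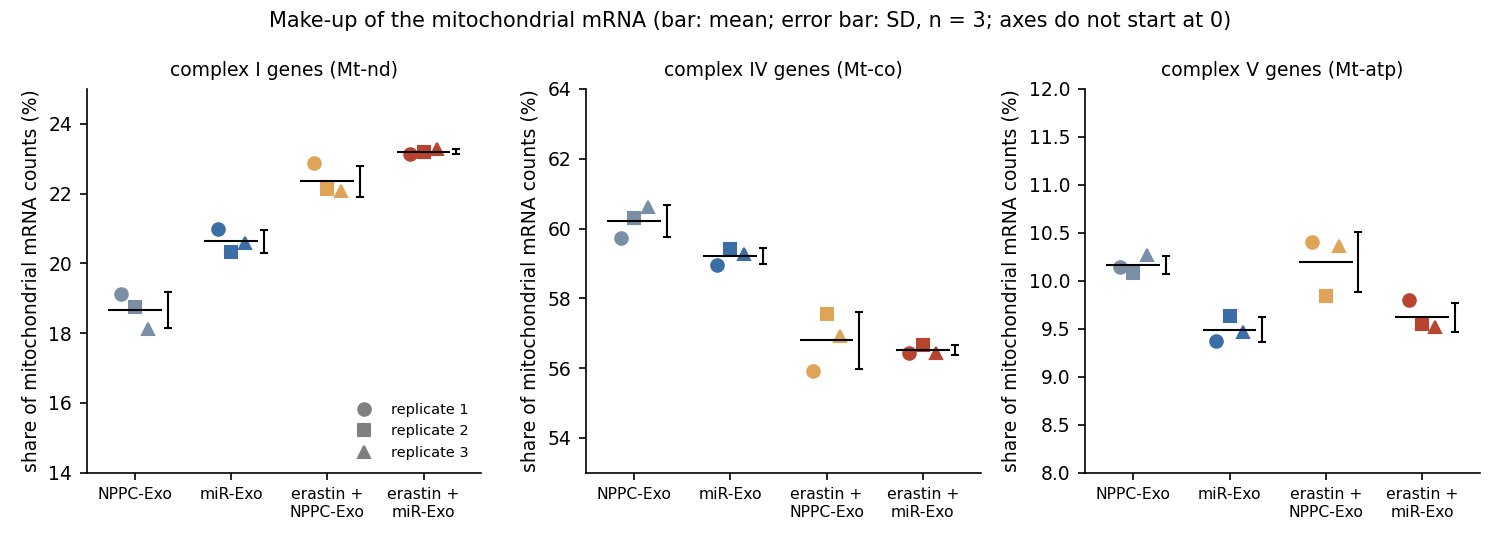
Share of mitochondrial mRNA counts (%) held by complex I, complex IV and complex V mRNAs in each library; points are libraries, the bar is the mean, the error bar the SD of 3 libraries, and the axes do not start at 0. The Mt-nd share climbs from 18.7% on average with NPPC-Exo to 23.2% with erastin and miR-Exo with no overlap of groups, and the Mt-co share is lower in all libraries with erastin.

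The fold changes below are from edgeR fits with TMM scaling, which sets the bulk of genes to no change, and a gene is said to rise or fall where its p, adjusted over all 15650 genes tested, was under 0.05. When library size alone was used instead, the median gene changed with erastin by 0.300 (log2) under NPPC-Exo and by 0.334 under miR-Exo. That is 0.283 and 0.305 above its change on the TMM scale. A fall smaller than these shifts on the TMM scale can thus take the other sign with library size alone, while a rise becomes larger. On the TMM scale erastin under NPPC-Exo raised 2 and lowered 3 of the 13 mitochondrial mRNAs, where 43.6% of all genes were called (21.5% higher, 22.1% lower). With library size alone 11 of the 13 were higher and 0 lower, where 6403 of all 15650 genes were higher and 1833 lower. Under miR-Exo erastin raised 8 and lowered 0, where 49.1% of all genes were called (24.7% higher, 24.4% lower). There 13 were higher with library size alone, beside 6963 higher and 2156 lower of all 15650 genes.

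Mt-nd1, a core subunit at the ubiquinone site of complex I, had 1299, 1348 and 1413 CPM with NPPC-Exo and 1640, 1640 and 1656 CPM with erastin and NPPC-Exo. It had 1287, 1362 and 1396 CPM with miR-Exo and 1838, 1750 and 1672 CPM with erastin and miR-Exo. All 6 erastin libraries were above all 6 without erastin, and the rise was 0.28 (log2, SE 0.05, adjusted p = 0.00023) under NPPC-Exo and 0.38 (SE 0.05, adjusted p = 1.5e-05) under miR-Exo. Mt-nd3 had 77.6, 75.2 and 80.9 CPM with NPPC-Exo, 107, 90.2 and 92.0 CPM with erastin and NPPC-Exo, 82.2, 85.1 and 86.7 CPM in the miR-Exo libraries and 117, 96.9 and 120 CPM with erastin and miR-Exo. The groups compared did not overlap, and the rise was 0.31 (SE 0.08, adjusted p = 0.0093) and 0.40 (SE 0.08, adjusted p = 0.0016). Both calls, for Mt-nd1 and Mt-nd3, held under every alternative run. Under miR-Exo all 7 complex I mRNAs rose, by 0.13 (Mt-nd6) to 0.40 (Mt-nd3), and Mt-co2 rose by 0.24 (SE 0.05). Of these, the call of Mt-nd6 (adjusted p = 0.038) was lost without miR-Exo replicate 1, miR-Exo replicate 2, or any 1 library of the erastin groups other than erastin with miR-Exo replicate 3, and without the 3 libraries lowest in the component (0.12, adjusted p = 0.0825), and that of Mt-nd2 (0.14, adjusted p = 0.024) without miR-Exo replicates 1 or 2 or erastin with miR-Exo replicates 1 or 2 (adjusted p of 0.0537 to 0.181 in these fits).

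Mt-co1, Mt-co3 and Mt-cyb, the cytochrome b of complex III, were the mitochondrial mRNAs that fell under NPPC-Exo on the TMM scale. Mt-co3 had 3493, 3868 and 3962 CPM without erastin and 2906, 2976 and 3013 CPM with it, with no overlap (log2 fold change -0.35, SE 0.05, adjusted p = 0.00014). Mt-co1 had 18339, 18251 and 18541 CPM without and 15499, 15930 and 15819 CPM with erastin (-0.22, SE 0.04, adjusted p = 0.00091), and Mt-cyb had 4350, 4323 and 4460 CPM without and 3949, 3800 and 3904 CPM with it (-0.17, SE 0.04, adjusted p = 0.0040). With library size alone Mt-co1 (0.06) and Mt-cyb (0.11) turned to the other sign and Mt-co3 (-0.07) lost its call. Relative to the mitochondrial mRNA sum, which holds these mRNAs and is no separate support, Mt-co3 and Mt-co1 fell as given above. Mt-cyb did not pass the test there (-0.04, SE 0.03). Under miR-Exo none of the 3 passed the test (Mt-co3 -0.09, Mt-co1 -0.01, Mt-cyb 0.07). The ATP synthase mRNAs Mt-atp6 (-0.13 and 0.06) and Mt-atp8 (-0.12 and 0.14) passed the test in neither comparison. In the deposited annotation Mt-atp8 and Mt-atp6 share 43 bases, Mt-nd4l and Mt-nd4 share 7, and Mt-nd5 shares 23 with Mt-nd6 on the other strand, so reads there may be split between them.

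Between the kinds of exosome, the mitochondrial mRNAs that differed were led by Mt-nd4, Mt-nd5 and Mt-nd6, which follow each other along the genome. Without erastin, miR-Exo was higher than NPPC-Exo for these 3 of 13 and lower for 0, where 10.7% of all genes were called (4.15% higher, 6.52% lower). Mt-nd6 had 164, 156 and 163 CPM with NPPC-Exo and 183, 195 and 197 CPM with miR-Exo (0.25, SE 0.05, adjusted p = 0.0052). Mt-nd5 had 1706, 1583 and 1557 CPM against 1845, 1876 and 1991 CPM (0.24, SE 0.05, adjusted p = 0.0087). Neither pair overlapped, and both calls held in every alternative. The call of Mt-nd4 (0.21, SE 0.06, adjusted p = 0.040) was lost when NPPC-Exo replicate 2 or 3 or any of the 3 miR-Exo libraries was left out (adjusted p of 0.0794 to 0.115).

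With erastin, miR-Exo was higher than NPPC-Exo for 6 of the 13 and lower for 0, where 31.3% of all genes were called (15.6% higher, 15.8% lower). The largest differences were again Mt-nd4 (0.37, SE 0.06, adjusted p = 0.00042), Mt-nd6 (0.36, SE 0.05, adjusted p = 0.00011) and Mt-nd5 (0.34, SE 0.05, adjusted p = 0.00024). In CPM, Mt-nd4 went from 1877, 1850 and 1656 to 2464, 2365 and 2114, and Mt-nd6 from 162, 159 and 169 to 210, 216 and 202, without overlap. Mt-nd4l, Mt-co1 and Mt-cyb were higher by 0.22, 0.19 and 0.17. Without erastin and miR-Exo replicate 1 these last 3 lost their calls (0.14, 0.13 and 0.12, with adjusted p of 0.203, 0.0528 and 0.0563) and 3 calls were left of 6. Mt-nd4l lost its call also without erastin and miR-Exo replicate 2, or without erastin and NPPC-Exo replicates 2 or 3 (adjusted p of 0.0766 to 0.184). Relative to the mitochondrial mRNA sum, Mt-nd4, Mt-nd5 and Mt-nd6 were higher with miR-Exo both without erastin (0.24, 0.27 and 0.28) and with it (0.19, 0.16 and 0.19), and Mt-atp6 was lower with erastin (-0.11).

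**Figure D3:**
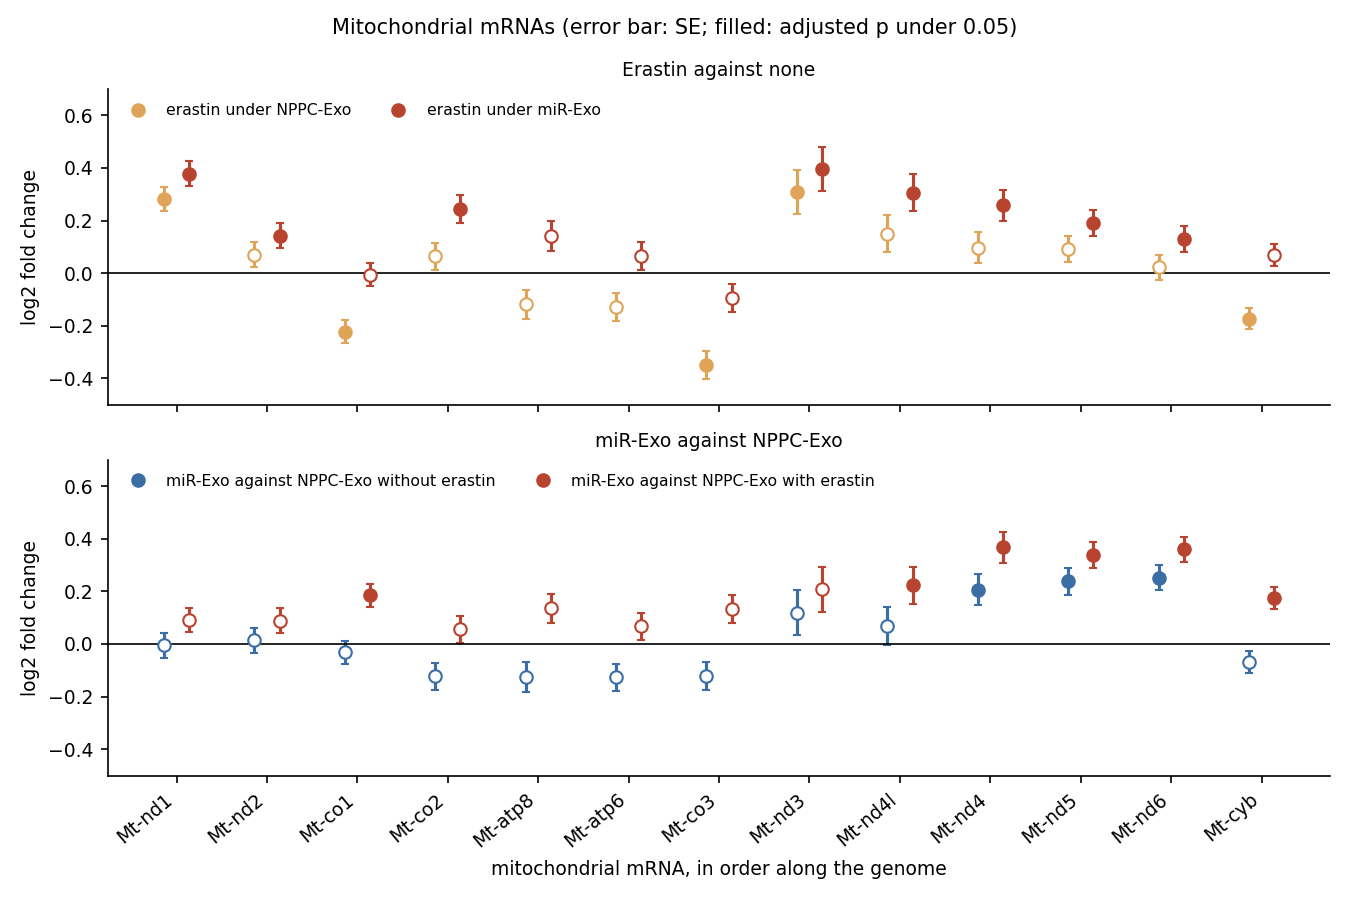
Log2 fold change of the 13 mitochondrial mRNAs in their order along the genome, for erastin against none (top) and miR-Exo against NPPC-Exo (bottom), on the TMM scale; error bars are SE and filled points have an adjusted p under 0.05. Mt-nd1 and Mt-nd3 rise with erastin under both kinds of exosome (0.28 to 0.40), and Mt-nd4, Mt-nd5 and Mt-nd6 stand highest in the exosome comparison (0.21 to 0.37).

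The mitochondrial rRNAs showed no clear change in share with erastin. The 2 rRNA rows held 0.0455% to 0.0702% of the counts in single libraries. Their mean share was 0.0507% with NPPC-Exo and 0.0481% with erastin added, and 0.0584% with miR-Exo and 0.0613% with erastin added. Libraries with and without erastin overlapped under each kind of exosome. With erastin, the miR-Exo libraries (0.0518% or more) lay above the NPPC-Exo libraries (0.0513% or less). On the TMM scale both were lower with erastin under NPPC-Exo, by -0.60 (log2, SE 0.15, adjusted p = 0.0050) for AY172581.9 and -0.27 (SE 0.09, adjusted p = 0.027) for AY172581.24. The second fall is smaller than the shift of 0.283 between the scales, so it can take the other sign with library size alone. The first fall is larger than that shift. AY172581.9 had 194, 162 and 165 CPM with NPPC-Exo and 114, 112 and 120 CPM with erastin and NPPC-Exo, without overlap. The summed share therefore does not describe each row. Under miR-Exo the values were -0.35 (adjusted p = 0.065) and -0.19 (adjusted p = 0.10). How much of their RNA the library preparation kept is not stated in the labels.

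Among the 92 nuclear members tested, erastin raised 3 and lowered 15 under NPPC-Exo on the TMM scale, against 43.6% of all genes called, whereas with library size alone 24 were higher and 2 lower. Under miR-Exo it raised 5 and lowered 27, against 49.1% of all genes called, and with library size alone 28 were higher and 14 lower. Over all 15650 genes, library size alone gave 6403 higher and 1833 lower under NPPC-Exo, and 6963 and 2156 under miR-Exo. The share of nuclear members called was 19.6% and 34.8%, below the 43.6% and 49.1% of all genes. Their median change was -0.08 and -0.14 on the TMM scale, beside 0.02 and 0.03 over all genes. Under NPPC-Exo the count rested on single libraries: it was 10 (5 higher, 5 lower) without NPPC-Exo replicate 3, 11 without NPPC-Exo replicate 2 and 9 without erastin and NPPC-Exo replicate 2. Without the 3 libraries lowest in the component it was 32 (6 higher, 26 lower) under NPPC-Exo and 38 (4 higher, 34 lower) under miR-Exo. The share of all genes called in these fits without libraries is not given here. Their counts therefore do not set the nuclear members apart from other genes. Of the genes that fell under NPPC-Exo 8 of 15 (53.3%) also fell under miR-Exo, which is 29.6% of the 27 there, whereas over all genes 2423 of 3454 (70.2%) did, which is 63.5% of 3814. These 8 were Ndufa4l2, Ndufa6, Ndufa7, Ndufaf3, Ndufv2, 1 copy of Ndufv3, Sdhb and Sdhc. Cox7b and Uqcrfs1 rose in both.

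By complex, the median change under NPPC-Exo and miR-Exo was -0.12 and -0.24 for complex I, -0.22 and -0.20 for complex II, -0.10 and -0.22 for complex III, -0.09 and -0.11 for complex IV and 0.02 and -0.04 for complex V. With library size alone all of these medians were above 0, from 0.07 to 0.31. The median over all genes on that scale was 0.30 under NPPC-Exo and 0.33 under miR-Exo. In complex I 0 rose and 5 fell of 37 under NPPC-Exo, and 2 rose and 14 fell under miR-Exo. Complex V had 1 rise and 2 falls of 15, and then 0 and 1.

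**Figure D4:**
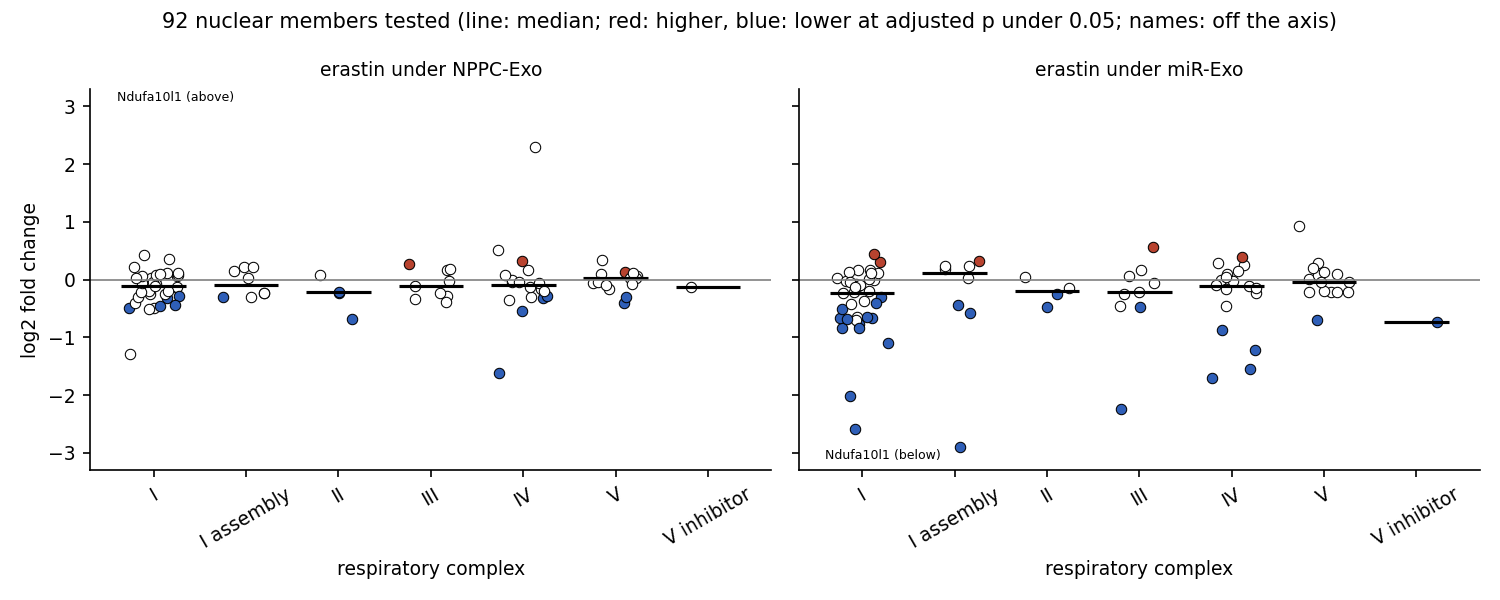
Log2 fold change (TMM scale) of the 92 nuclear members with erastin under NPPC-Exo (left) and miR-Exo (right), by complex; each point is a gene, red and blue mark genes higher or lower at an adjusted p under 0.05, the line is the median, and a named copy of Ndufa10l1 with groups at 0 counts lies beyond the axis. Complex I has 5 genes called lower on the left and 14 on the right. The lowest blue point of complex IV on the left is Ndufa4l2 (-1.62), and those of complexes I and III on the right are Ndufs7 (-2.59) and Uqcrq (-2.24).

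The nuclear member with the smallest adjusted p in both erastin comparisons was Ndufa4l2, a paralog of Ndufa4 known as a gene induced by hypoxia that lowers respiration. It had 78.8, 90.8 and 99.0 CPM with NPPC-Exo and 27.8, 27.8 and 31.9 CPM with erastin and NPPC-Exo. With miR-Exo it had 58.9, 60.8 and 50.2 CPM, and with erastin and miR-Exo 23.9, 23.1 and 26.0 CPM. No group overlapped another in this gene. It fell by 1.62 (log2, SE 0.10, adjusted p = 2.1e-08) under NPPC-Exo and by 1.22 (SE 0.10, adjusted p = 2.9e-07) under miR-Exo, and miR-Exo was lower than NPPC-Exo without erastin by -0.66 (SE 0.10, adjusted p = 0.00084). These 3 calls held in every alternative. With erastin the difference between the exosomes was -0.26 (SE 0.10) and did not pass the test, which it did in 8 of 24 alternatives (-0.31, adjusted p = 0.029, without the 3 libraries lowest in the component). Ndufa4 itself had 40.6 to 55.2 CPM over all libraries and passed the test in none of the 5 comparisons on the TMM scale, but with library size alone it was higher with erastin under both exosomes (0.45, adjusted p = 0.00023, and 0.35, adjusted p = 0.0012).

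Subunit 4 of complex IV also comes as a pair of isoforms. Cox4i2, the isoform of the regulatory subunit 4 linked to hypoxia and to lung, had 15.0, 15.5 and 17.0 CPM in the NPPC-Exo libraries, 8.69, 9.45 and 12.1 CPM with miR-Exo, 10.7, 10.4 and 11.4 CPM with erastin and NPPC-Exo and 10.2, 9.42 and 12.7 CPM with erastin and miR-Exo. The NPPC-Exo libraries were above the 9 others. Erastin lowered it under NPPC-Exo (-0.55, SE 0.14, adjusted p = 0.0053; -0.27 and not called with library size alone), and without erastin it was lower with miR-Exo (-0.65, SE 0.14, adjusted p = 0.0095, held in every alternative). Its ubiquitous counterpart Cox4i1 had 132, 165 and 180 CPM with NPPC-Exo and 129, 126 and 129 CPM with erastin and NPPC-Exo (-0.32, SE 0.10, adjusted p = 0.016). That call was lost with library size alone (-0.03) and without NPPC-Exo replicate 2 or 3 or erastin and NPPC-Exo replicate 2 (-0.22 to -0.29, adjusted p of 0.0564 to 0.082), and the fall under miR-Exo did not pass the test (-0.24, SE 0.10). Cox6a2, the heart and muscle isoform of subunit 6a, had at most 1.40 CPM and Cox7a1, also of muscle, at most 0.535 CPM. Cox6b2 had at most 0.533 CPM. Cox6a2 was called higher with miR-Exo than NPPC-Exo without erastin (0, 0 and 0.217 CPM against 0.362, 1.40 and 0.677 CPM, adjusted p = 0.047), a call lost in 14 of 24 alternatives.

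Cox7a2l, which binds complexes III and IV and helps them join into supercomplexes, differed between the exosomes. It had 70.2, 86.0 and 96.6 CPM in the NPPC-Exo libraries, 103, 116 and 103 CPM with miR-Exo, 71.9, 64.4 and 70.6 CPM with erastin and NPPC-Exo and 98.0, 99.0 and 94.9 CPM with erastin and miR-Exo. The miR-Exo libraries were above the NPPC-Exo libraries both without erastin (0.35, SE 0.10, adjusted p = 0.035) and with it (0.50, SE 0.10, adjusted p = 0.0016). The difference with erastin held in every alternative. The call without erastin was lost without NPPC-Exo replicate 1 or 2, without any of the 3 miR-Exo libraries, or without the 3 libraries lowest in the component (0.26, adjusted p = 0.079). The fall with erastin under NPPC-Exo (-0.29, SE 0.10, adjusted p = 0.026) was lost without NPPC-Exo replicates 2 or 3 or erastin and NPPC-Exo replicates 2 or 3 (adjusted p of 0.0609 to 0.13) and was -0.01 with library size alone. Cox7b, an accessory subunit, rose with erastin under both exosomes (0.33, SE 0.10, adjusted p = 0.017, and 0.39, SE 0.10, adjusted p = 0.0052). Its libraries had 15.2, 19.1 and 17.2 CPM with NPPC-Exo, 23.4, 19.6 and 21.5 CPM with erastin and NPPC-Exo, 16.0, 16.0 and 14.3 CPM in the miR-Exo libraries and 19.3, 20.5 and 20.8 CPM with erastin and miR-Exo. The call under NPPC-Exo was lost without NPPC-Exo replicate 1 (0.25, adjusted p = 0.069), without the 3 libraries lowest in the component (0.25, adjusted p = 0.0739) or without erastin and NPPC-Exo replicate 1 (0.28, adjusted p = 0.057).

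In complex II the membrane anchor Sdhc fell while the other anchor, Sdhd, did not pass the test. Sdhc had 126, 139 and 148 CPM with NPPC-Exo and 86.3, 82.9 and 88.6 CPM with erastin and NPPC-Exo. It had 134, 146 and 140 CPM with miR-Exo and 95.3, 107 and 102 CPM with erastin and miR-Exo. The groups compared did not overlap (-0.68, SE 0.07, adjusted p = 1.8e-06, held in every alternative, and -0.47, SE 0.07, adjusted p = 5.3e-05, which became -0.16 and lost its call with library size alone). Sdhd had 46.5 to 58.3 CPM over the 12 libraries and values of 0.08 and 0.04, and with library size alone it was higher in both (0.36, adjusted p = 0.00081, and 0.34, adjusted p = 0.00099). With erastin Sdhc was higher with miR-Exo (0.24, SE 0.07, adjusted p = 0.014), a call lost without erastin and NPPC-Exo replicates 1 or 2 or erastin and miR-Exo replicate 2 (0.18 to 0.22, adjusted p of 0.0524 to 0.0895). The catalytic subunits, the flavoprotein Sdha (-0.23, adjusted p = 0.013, under NPPC-Exo) and the iron-sulfur subunit Sdhb (-0.21, adjusted p = 0.024, and -0.24, adjusted p = 0.0095), fell on the TMM scale and had the other sign with library size alone (0.06, 0.07 and 0.06). Under NPPC-Exo the call of Sdha was lost without NPPC-Exo replicate 3 (-0.19, adjusted p = 0.0545) or erastin and NPPC-Exo replicate 2 (-0.19, adjusted p = 0.0683), and that of Sdhb without NPPC-Exo replicates 2 or 3 or erastin and NPPC-Exo replicates 1 or 2 (adjusted p of 0.0565 to 0.137).

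In complex III 1 gene rose with erastin in both comparisons. Uqcrfs1, the Rieske iron-sulfur protein that hands electrons from ubiquinol to cytochrome c1, had 38.0, 39.7 and 45.0 CPM with NPPC-Exo, 51.1, 47.3 and 49.6 CPM with erastin and NPPC-Exo, 44.8, 47.4 and 47.3 CPM in the miR-Exo libraries and 67.3, 69.6 and 68.9 CPM with erastin and miR-Exo. Libraries with erastin and miR-Exo were above all 9 others. The rise was 0.27 (SE 0.07, adjusted p = 0.0047) under NPPC-Exo and 0.56 (SE 0.07, adjusted p = 1.1e-05) under miR-Exo, and with erastin miR-Exo was higher by 0.48 (SE 0.07, adjusted p = 0.00015), all held in every alternative. The interaction, which tests the gap between the erastin changes, was 0.29 (SE 0.09) and did not pass. The core subunits Uqcrc1 (0.17 and -0.06) and Uqcrc2 (-0.10 and 0.06) did not pass in either erastin comparison.

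In complex I 5 members fell under NPPC-Exo: Ndufv2, a copy of Ndufv3, Ndufa6, Ndufa7 and Ndufb9. Ndufv2, an iron-sulfur subunit beside the NADH site, had 41.2, 48.0 and 54.4 CPM with NPPC-Exo, 35.4, 33.9 and 35.9 CPM with erastin and NPPC-Exo, 45.8, 54.3 and 49.6 CPM in the miR-Exo libraries and 31.9, 32.7 and 40.9 CPM with erastin and miR-Exo. It fell by 0.45 (SE 0.11, adjusted p = 0.0052) and by 0.50 (SE 0.11, adjusted p = 0.0021), without overlap, and under NPPC-Exo it had -0.17 and no call with library size alone. The more abundant copy of Ndufv3 (ENSRNOG00000001182), a small subunit of the same module, fell by 0.43 (SE 0.06, adjusted p = 9.5e-05) and by 0.69 (SE 0.06, adjusted p = 1.2e-06), and without erastin it was higher with miR-Exo (0.36, SE 0.06, adjusted p = 0.0031, held in every alternative). The first of these falls became -0.15 and lost its call with library size alone. Ndufa6 (-0.49, adjusted p = 0.027), Ndufa7 (-0.32, adjusted p = 0.041) and the assembly factor Ndufaf3 (-0.31, adjusted p = 0.014) fell under NPPC-Exo, and each lost its call with library size alone, without NPPC-Exo replicate 3 and without erastin and NPPC-Exo replicate 2; Ndufa6 lost it in 2 and Ndufa7 in 5 further fits that leave out a library. Ndufb9, an accessory subunit of the membrane arm named after its values were seen (-0.29, adjusted p = 0.033), was at -0.01 with library size alone and lost its call in 5 single-library omissions, those of NPPC-Exo replicate 3 and erastin and NPPC-Exo replicate 2 among them (-0.22 to -0.28, adjusted p of 0.0528 to 0.132). The flavoprotein subunit Ndufv1 (-0.20 and -0.13) and the largest core subunit Ndufs1 (0.08 and 0.12) did not pass. Of complex V, Atp5f1a (0.13) rose and Atp5f1e (-0.41) fell under NPPC-Exo, each at an adjusted p of 0.026 to 0.040 that was lost in 5 or more single-library omissions. With library size alone Atp5f1a was at 0.41 (adjusted p = 7.7e-06) and Atp5f1e lost its call (-0.13, adjusted p = 0.46).

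A further set of small and core subunits fell with erastin under miR-Exo by large folds, did not pass the test under NPPC-Exo, and had a large spread between libraries. Uqcrq, a small subunit of complex III, had 26.3, 18.8 and 19.4 CPM with miR-Exo and 3.02, 2.61 and 8.04 CPM with erastin and miR-Exo, against 20.9, 9.56 and 8.07 CPM with NPPC-Exo and 11.6, 16.7 and 15.5 CPM with erastin and NPPC-Exo. It fell by 2.24 (SE 0.42, adjusted p = 0.00061) under miR-Exo and had 0.18 (SE 0.40) under NPPC-Exo, and the interaction was -2.42 (SE 0.57, adjusted p = 0.017). Ndufs7, which carries the last iron-sulfur cluster before ubiquinone in complex I, had 16.5, 10.1 and 7.79 CPM with miR-Exo and 1.73, 1.26 and 2.70 CPM with erastin and miR-Exo, and 9.50, 3.84 and 3.98 CPM and 4.42, 7.00 and 8.65 CPM in the NPPC-Exo pair. It fell by 2.59 (SE 0.42, adjusted p = 0.00019), with 0.21 (SE 0.39) under NPPC-Exo and an interaction of -2.81 (SE 0.57, adjusted p = 0.0082). Cox5b, the zinc-binding subunit of complex IV, had 24.7, 25.7 and 23.8 CPM with miR-Exo and 6.23, 5.39 and 13.8 CPM with erastin and miR-Exo, and 19.2, 15.3 and 9.53 CPM and 17.9, 22.1 and 22.7 CPM in the NPPC-Exo pair. It fell by 1.55 (SE 0.31, adjusted p = 0.00096), with 0.51 (SE 0.30) under NPPC-Exo and an interaction of -2.06 (SE 0.43, adjusted p = 0.0090). The libraries with erastin and miR-Exo were the lowest of the 12 for Ndufs7 and Uqcrq, though in Uqcrq the highest of them (8.04 CPM) was level with the lowest NPPC-Exo library (8.07 CPM), and in Cox5b it lay above that library.

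Of the same kind were Ndufb6 and Ndufb2, accessory subunits of the membrane arm of complex I, and Cox6a1, the non-muscle isoform of subunit 6a. They fell under miR-Exo by 2.01 (SE 0.39), 1.10 (SE 0.29) and 1.71 (SE 0.35), with adjusted p of 0.00085, 0.0060 and 0.0012. Cox6a1 had 65.4, 29.3 and 23.5 CPM with miR-Exo and 9.19, 11.0 and 16.0 CPM with erastin and miR-Exo, against 31.0, 16.6 and 18.9 CPM and 15.6, 20.3 and 18.2 CPM in the NPPC-Exo pair, and its interaction (-1.41, SE 0.49) did not pass the test. Ndufa12, a matrix arm subunit, had 15.4, 15.8 and 10.2 CPM with miR-Exo and 7.87, 6.11 and 9.21 CPM with erastin and miR-Exo, and its interaction was -1.26 (SE 0.25, adjusted p = 0.0067). The falls of Uqcrq, Ndufs7, Cox5b, Ndufb6, Ndufb2 and Cox6a1 held in every alternative, library size alone included. That statement leaves aside the fit without the 3 libraries lowest in the component, for the reason given below. The ATP synthase inhibitor Atp5if1, which stops the enzyme from running backwards (-0.73, SE 0.22, adjusted p = 0.013) fell as well, with 33.5, 32.0 and 31.1 CPM with miR-Exo and 16.3, 12.6 and 29.4 CPM with erastin and miR-Exo, a call lost with library size alone (-0.42) and without erastin and miR-Exo replicate 1 (-0.63, adjusted p = 0.0577). Ndufaf8 and Cox8a, at a few CPM or less, fell too (-2.89, adjusted p = 0.0073, and -0.88, adjusted p = 0.044). Without miR-Exo replicate 1 these 2 lost their calls (-2.18, adjusted p = 0.051, and -0.44, adjusted p = 0.278), as they did without the 3 libraries lowest in the component (-2.35, adjusted p = 0.0773, and -0.62, adjusted p = 0.0635), and Cox8a lost it in 6 other single-library omissions.

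In several of these genes single libraries differed widely. The median within-group SD of log2 CPM over nuclear members was 0.17, and it was 0.56 for Uqcrq, 0.53 for Ndufs7, 0.51 for Ndufb6, 0.50 for Cox6a1 and 0.43 for Cox5b. It was 0.31 for Atp5if1, 0.29 for Ndufb2 and 0.24 for Ndufa12, and it was high also in Ndufa1 (0.83) and Atp5md (0.55), which passed the test in neither erastin comparison. In Uqcrq, Ndufs7, Ndufb6 and Cox6a1 the highest libraries of their groups were NPPC-Exo replicate 1 and miR-Exo replicate 1, the 2 that lie farthest out in the component. The component was taken over the 12517 tested genes with a mean above 1 CPM. With Cox5b these genes lay in the lowest 2% of those 12517 by their weight in it (percentiles of 0.479 for Ndufs7, 0.527 for Uqcrq, 0.695 for Ndufb6, 0.719 for Cox6a1 and 1.97 for Cox5b). Cox8a (1.37) lay there too, whereas Atp5md was at 92.4. The 3 libraries lowest in the component are mostly those where Uqcrq, Ndufs7, Ndufb6, Cox6a1 and Cox5b were high within their groups. Leaving them out therefore shifts the group means of these genes and narrows their spread by the choice itself. Values without these libraries are thus given as descriptions with no p. The fall under miR-Exo was larger for Uqcrq (-2.76) and Cox5b (-2.09) and about the same for Ndufs7 (-2.58), Ndufb6 (-1.75) and Cox6a1 (-1.39). Under NPPC-Exo the same 9 libraries gave higher values with erastin for Uqcrq (0.73), Cox5b (0.75), Ndufb6 (0.79) and Ndufs7 (0.78), which were not called in all 12. Between the exosomes without erastin these 9 libraries gave higher values with miR-Exo for Uqcrq (1.12), Cox5b (0.99), Ndufb6 (1.24) and Ndufs7 (1.19), again not called in all 12. Across the 86 nuclear members with a mean of at least 1 CPM, the SD went with lower level (Spearman's rho -0.69) and shorter length (-0.44), and length and level went together (0.48). These are descriptions across genes of the same libraries. RNA quality values were not used here, and the part of RNA quality in these results was not tested.

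**Figure D5:**
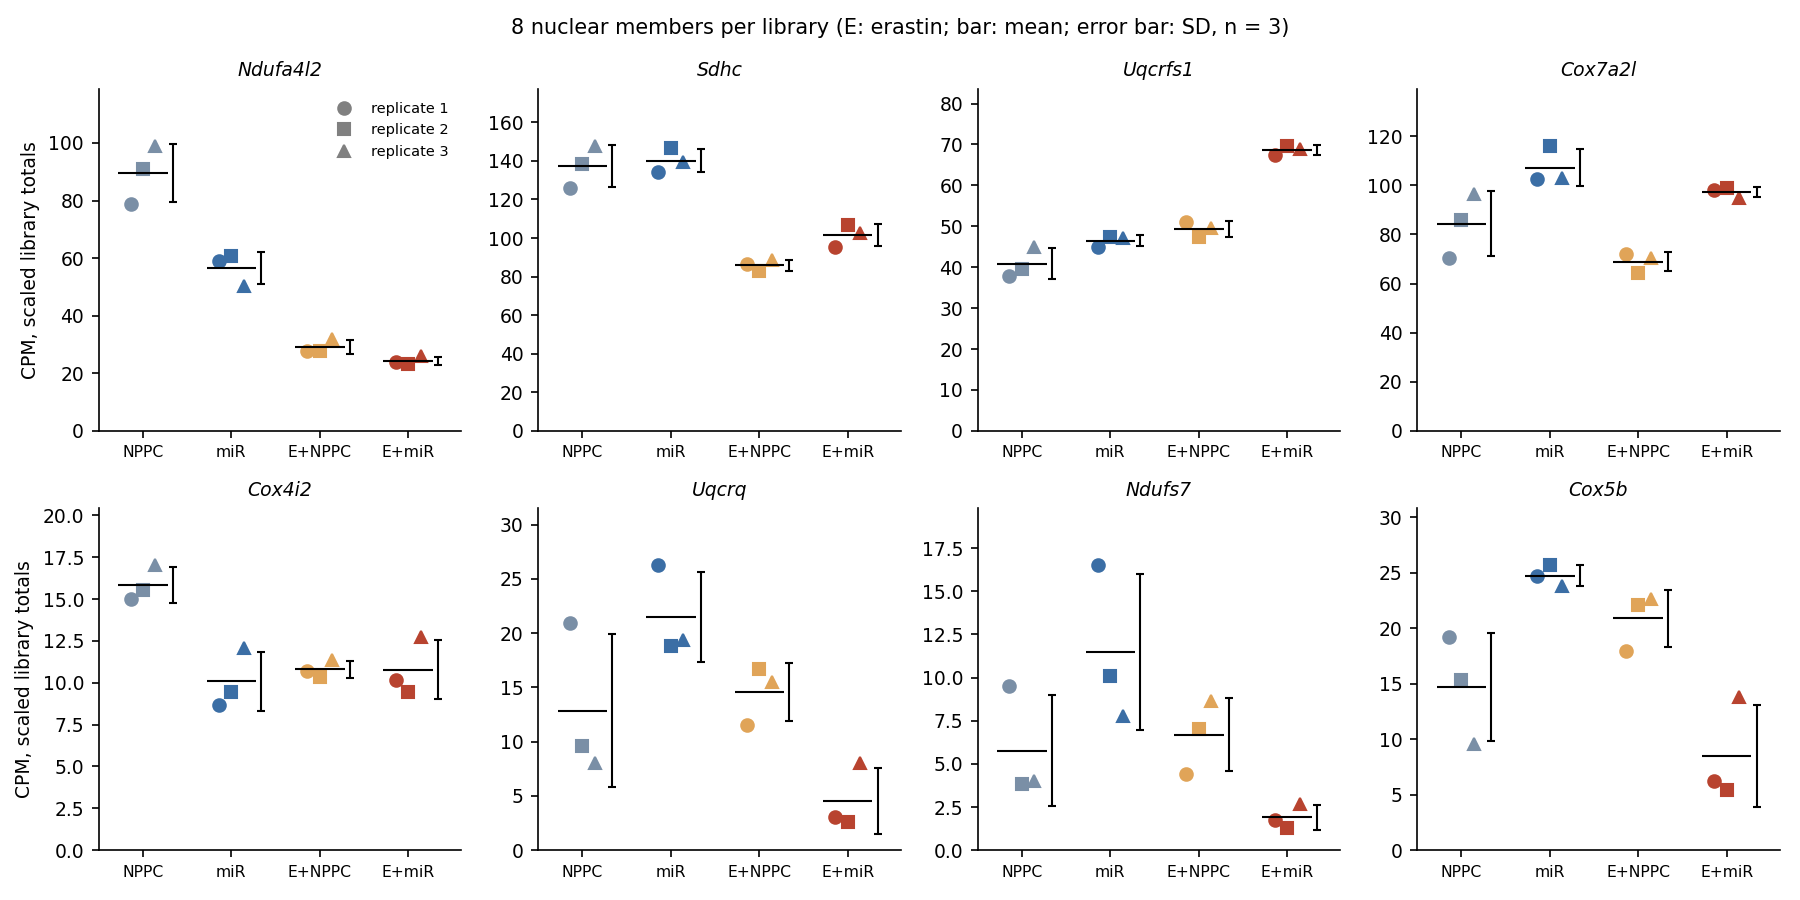
Level (CPM of TMM-scaled library totals) of 8 nuclear members in each library; points are libraries, the bar is the mean and the error bar the SD of 3 libraries, E marks erastin. Ndufa4l2, Sdhc and Uqcrfs1 separate libraries with and without erastin within each exosome kind, while in Uqcrq and Ndufs7 replicate 1 stands above the others in both groups without erastin and the libraries with erastin and miR-Exo are low.

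Between the exosomes without erastin, miR-Exo was higher for 4 and lower for 2 of the 92 nuclear members, or 6.52% against 10.7% of all genes. With library size alone 8 were higher and 2 lower, beside 1264 and 576 of all 15650 genes. Same-numbered libraries of these 2 groups deviated together, and with the replicate number as a block and only these groups in the fit 8 were higher and 2 lower. The 2 that were lower are Ndufa4l2 and Cox4i2, and the 4 that were higher are Cox7a2l, Cox6a2 and a copy each of Ndufv3 and Ndufa10l1. Without NPPC-Exo replicate 2 the count was 3. With erastin, miR-Exo was higher for 6 and lower for 8, or 15.2% against 31.3% of all genes. Library size alone gave 15 higher and 6 lower, beside 3789 and 1737 of all 15650 genes. On the TMM scale the genes were as follows. The lower ones included Ndufs7 (-1.82, SE 0.42, adjusted p = 0.0049), Uqcrq (-1.68, SE 0.41, adjusted p = 0.0077), Cox5b (-1.30, SE 0.31, adjusted p = 0.0058), Ndufa12 (-0.90, SE 0.18, adjusted p = 0.0018) and Ndufs3, a core subunit of complex I (-0.50, adjusted p = 0.0084). All 5 held in every alternative, leaving aside the fit without the 3 libraries lowest in the component. The count of 14 was 9 without erastin and NPPC-Exo replicate 2 or erastin and miR-Exo replicate 1, 7 without erastin and miR-Exo replicate 2, and 25 (8 higher, 17 lower) without the 3 libraries lowest in the component. For the fits with the block or without libraries, the share of all genes called is not given here.

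The interaction of erastin and exosome kind was called for 8 of 92 nuclear members (1 higher, 7 lower) and 4 of 13 mitochondrial ones (4 higher, 0 lower), where 12.8% of all genes were called (5.81% higher, 7.01% lower). It shares its libraries with the comparisons above. The nuclear count was 4 without erastin and NPPC-Exo replicate 3 or erastin and miR-Exo replicate 1, 5 without NPPC-Exo replicate 2 or miR-Exo replicate 1, 13 without NPPC-Exo replicate 1, and 14 without erastin and miR-Exo replicate 3. The mitochondrial count fell to 0, 1 or 2 without any 1 of 9 libraries, all except NPPC-Exo replicate 1, miR-Exo replicate 3 and erastin with miR-Exo replicate 3. With the replicate block it was 1. Shares over all genes in these further fits are not given here. A copy of Ndufa10l1 (ENSRNOG00000062245) had 0, 0 and 0 counts with NPPC-Exo, 164, 0 and 283 with miR-Exo, 1, 1 and 36 when erastin was added to NPPC-Exo and 1, 0 and 0 when it was added to miR-Exo. The other copy (ENSRNOG00000016470), at 49.8 to 65.5 CPM, carried the level of this complex I subunit.

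Other genes of the pathway, from lists written with earlier results of these data known, were counted on the TMM scale in the same way, and their background is that of all genes given above. Of 35 genes for transcription and handling of mitochondrial RNA, 6 rose and 5 fell with erastin under NPPC-Exo, and 12 rose and 6 fell under miR-Exo. Tfam, which packs mitochondrial DNA and starts its transcription, rose by 0.51 (SE 0.10, adjusted p = 0.00068) under NPPC-Exo, and Rexo2, which degrades the shortest RNA fragments in mitochondria, fell by 0.83 (SE 0.06) in both. With erastin, Grsf1, an RNA granule protein that binds mitochondrial transcripts and that of Mt-nd6 among them, was higher with miR-Exo by 0.48 (SE 0.06, adjusted p = 5.4e-05). Of 16 nuclear regulators of mitochondrial biogenesis 3 rose and 2 fell, and then 6 rose and 3 fell. Nrf1, an activator of respiratory genes, rose by 0.50 (SE 0.06, adjusted p = 2.7e-05) under NPPC-Exo, and Ppargc1a, a coactivator of the same programme, rose by 1.79 (SE 0.36, adjusted p = 0.0011) under miR-Exo. Tfam, Nrf1 and Ppargc1a were each picked for a small adjusted p in the comparison given. Their values in the other erastin comparison and in the alternatives are not given here. Of 71 mitochondrial ribosome genes 6 rose and 5 fell under NPPC-Exo, and 3 rose and 21 fell under miR-Exo, with medians of 0.04 and -0.04.

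Assembly factors outside the name rule were counted by complex. For complex I 1 rose and 4 fell of 11 under NPPC-Exo and 2 rose and 3 fell under miR-Exo. For complexes II and III the counts were 0 and 0 of 9 and then 1 and 1, for complex IV 1 and 1 of 20 and then 5 and 1, and for complex V 0 and 1 of 6 and then 0 and 2. Of 26 genes of the outer membrane and of protein import 11 rose and 1 fell under NPPC-Exo, and 7 rose and 0 fell under miR-Exo, among them the chaperonin Hspd1 (0.58, SE 0.05, adjusted p = 4.8e-07, and 0.80, SE 0.05, adjusted p = 1.8e-08). Of 20 genes around the TCA cycle 7 rose and 3 fell, and then 7 rose and 4 fell. Pdk4, a kinase that switches off pyruvate dehydrogenase, rose by 2.28 (SE 0.12) and 1.71 (SE 0.12). Of 14 genes of peroxide handling 2 rose and 3 fell, and then 2 rose and 4 fell, with Sod2, the superoxide dismutase of the matrix, up by 2.95 (SE 0.14, adjusted p = 1.7e-09) and 4.13 (SE 0.14, adjusted p = 8.0e-11). Ucp2, an inner membrane carrier of the uncoupler family, rose by 1.70 (SE 0.14) and 1.15 (SE 0.14). Of 12 genes of the mitochondrial unfolded protein response and proteases 0 rose and 6 fell, and then 1 rose and 6 fell. Of 9 genes of mitochondrial dynamics 0 rose and 4 fell, and then 0 and 1, and of 10 of mitophagy 3 rose and 3 fell, and then 2 and 4. Of 15 genes of coenzyme Q synthesis 2 rose and 3 fell, and then 0 and 4. Of 4 carriers 3 rose and 1 fell, and then 2 and 2, and of 8 other electron carriers 3 rose and 2 fell, and then 5 and 2.

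The promoters of the nuclear members were read from RefSeq (GRCr8) for 77 of their 89 symbols, as the 250 bases before each start. Sites for factors known to serve respiratory genes were searched on both strands by their letters: GCGC and TGCGC parted by any 1 base for NRF1, CCGGAAG for ETS factors such as GABPA, GGGCGG for SP1, ACGTG for HIF and TGACGTCA for CREB. NRF1 letters were found in 12 of 77 windows (15.6%) against 4.17% of 27457 genes, ETS letters in 20 (26.0%) against 7.74%, SP1 letters in 32.5% against 32.4%, HIF letters in 22.1% against 17.0% and CREB letters in 2.60% against 1.70%. The 27457 are all genes with a window, with no filter on gene type or level, whereas the members are protein-coding. Whether expressed protein-coding genes in general have a like share was not tested. A match is a description and not a bound site. Among the genes that fell with erastin, NRF1 letters were in 3 of 13 windows under NPPC-Exo and in 2 of 23 under miR-Exo, and ETS letters in 2 and 8. The windows of 3 genes with a response to erastin in both comparisons, Ndufa4l2, Sdhc and Uqcrfs1, are shown with those of 3 genes that fell together under miR-Exo, Uqcrq, Cox5b and Ndufs7. Each runs 5′ to 3′ on the strand of its gene, and capitals mark the letters searched, on either strand (GGGCGG or its complement CCGCCC for SP1, CCGGAAG for ETS factors and ACGTG for HIF).
Ndufa4l2 (chr7:65241919-65242168, plus strand): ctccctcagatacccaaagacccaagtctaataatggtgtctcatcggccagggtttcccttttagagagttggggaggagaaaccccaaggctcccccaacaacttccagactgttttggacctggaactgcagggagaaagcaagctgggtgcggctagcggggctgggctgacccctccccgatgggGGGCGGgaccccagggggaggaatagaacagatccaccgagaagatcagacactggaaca
Sdhc (chr13:86098026-86098275, minus strand): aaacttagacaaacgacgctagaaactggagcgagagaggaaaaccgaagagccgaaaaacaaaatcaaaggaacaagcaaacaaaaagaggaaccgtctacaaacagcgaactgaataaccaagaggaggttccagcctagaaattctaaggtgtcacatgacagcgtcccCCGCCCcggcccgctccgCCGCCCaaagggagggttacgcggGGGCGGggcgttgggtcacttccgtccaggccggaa
Uqcrfs1 (chr17:34186352-34186601, plus strand): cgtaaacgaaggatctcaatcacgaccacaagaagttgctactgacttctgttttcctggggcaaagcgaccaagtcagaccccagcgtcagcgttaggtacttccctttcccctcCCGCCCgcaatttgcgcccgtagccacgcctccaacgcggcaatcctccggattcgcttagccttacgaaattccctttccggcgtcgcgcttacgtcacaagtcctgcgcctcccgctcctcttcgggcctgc
Uqcrq (chr10:38089979-38090228, minus strand): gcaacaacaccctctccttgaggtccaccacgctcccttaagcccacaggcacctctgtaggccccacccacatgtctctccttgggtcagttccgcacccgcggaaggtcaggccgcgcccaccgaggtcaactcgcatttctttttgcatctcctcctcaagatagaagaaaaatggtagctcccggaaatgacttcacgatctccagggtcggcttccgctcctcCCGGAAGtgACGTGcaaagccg
Cox5b (chr9:46417587-46417836, plus strand): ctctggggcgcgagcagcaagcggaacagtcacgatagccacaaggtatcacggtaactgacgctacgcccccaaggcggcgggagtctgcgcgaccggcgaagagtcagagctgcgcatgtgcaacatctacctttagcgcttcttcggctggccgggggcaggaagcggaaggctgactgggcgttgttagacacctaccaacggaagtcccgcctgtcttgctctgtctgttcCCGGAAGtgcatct
Ndufs7 (chr7:10110499-10110748, minus strand): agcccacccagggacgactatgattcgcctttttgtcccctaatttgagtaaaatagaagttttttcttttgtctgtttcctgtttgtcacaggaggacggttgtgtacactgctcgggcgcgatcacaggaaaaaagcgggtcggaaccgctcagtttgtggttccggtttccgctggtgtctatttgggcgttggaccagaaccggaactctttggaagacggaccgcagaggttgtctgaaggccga

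In these windows Sdhc holds SP1 letters at 3 places, and Ndufa4l2 and Uqcrfs1 each at 1. Uqcrq and Cox5b both hold ETS letters close to the start, ending 16 and 8 bases before it, and Uqcrq also holds HIF letters. The window of Ndufs7 holds none of the letters searched. No HIF letters are in the window of Ndufa4l2, which says only that these letters are not in these 250 bases.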

How the data were processed

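RNA was measured by sequencing of strand-marked (dUTP) libraries from total RNA in 12 libraries, grouped by their titles into 4 groups of 3. The deposited table gives read counts per gene, raw as far as their values show, and FPKM values, which the authors scaled for gene length and library total. Per the submitters' processing notes StringTie and the rat build mRatBN7.2 were used; for the aligner, the counter and versions the entry is: not given in the sources used here. Coordinates in the table do not all fit that build, so the text gives none from it. Even numbers made up 57.3% of the counts from 1 to 20, so mates may in part have been counted separately, and halved counts were run as an alternative. Every row has a gene name.

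Counts of 15650 genes that passed edgeR's filterByExpr were scaled by TMM and fitted with edgeR's quasi-likelihood test (edgeR 4.0.16, R 4.3.3) over all 12 libraries, with Benjamini-Hochberg adjustment over all genes and a threshold of 0.05. SEs were derived from the fold change and its F value. The 5 contrasts were erastin under each exosome kind, miR-Exo against NPPC-Exo in cells without erastin and in cells with it, and their interaction; they share libraries. On simulated counts with known changes the fit for erastin under NPPC-Exo, run on 15267 genes, recovered 59.7% of 1.5-fold and 86.6% of 2-fold changes, and the interaction, run on 15285 genes, 34.3% and 76.1%. Of the calls in these simulations 2.98% and 9.27% were of unchanged genes, and 7.22% for the exosomes with erastin, so the last 2 exceeded the 5% aimed at. The simulation gave genes of like level the same spread and let genes vary independently. It changed far fewer genes than were called in the data, and none of low level. These rates may therefore not hold for members with a large spread, such as Uqcrq. Totals of 54616827 counts or more put 3 counts at 0.0549 CPM or less. Alternatives were library size alone, DESeq2 size factors, nuclear scaling, other filters, DESeq2 1.42.0, limma 3.58.1 on log2(FPKM + 1) and log2(FPKM + 0.1), halved counts, only the groups compared, a replicate block and each library left out. Leaving out 3 libraries together, the block in the pair of groups without erastin, and scaling to mitochondrial mRNA were added after the data were seen.

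The members and all lists were chosen with earlier results of these data known. Named were all mitochondrial members, the isoform sets of complex IV, the Sdh genes, Atp5if1, up to 10 called nuclear members with the largest rise and 10 with the largest fall per contrast, and up to 3 genes per pathway list with the smallest adjusted p. Atp5f1b, Atp5mc2, Uqcrc1, Uqcrc2, Ndufv1 and Ndufs1 were named after their values were seen. Same-numbered libraries deviated together (correlations of 0.350, 0.151 and 0.118) only for the groups without erastin; this pairing comes from the data and not from the labels.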

Additional observations from a re-analysis of the deposited data

Results flagged for a closer look

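The change with erastin differed between miR-Exo and NPPC-Exo, by edgeR's test of the interaction, in 12 members. Lower under miR-Exo were Ndufs7 (-2.81, adjusted p = 0.0082), Uqcrq (-2.42, adjusted p = 0.017), Ndufb6 (-2.12, adjusted p = 0.023), Cox5b (-2.06, adjusted p = 0.0090), Ndufa12 (-1.26, adjusted p = 0.0067) and Ndufs3 (-0.68, adjusted p = 0.027). Those of Ndufs7, Uqcrq, Cox5b and Ndufa12 held in every alternative run, leaving aside the fit without the 3 libraries lowest in the component. The call of Ndufb6 was lost without NPPC-Exo replicate 2, miR-Exo replicate 1, erastin and NPPC-Exo replicate 3 or erastin and miR-Exo replicate 1 (-1.77 to -2.05, adjusted p of 0.0592 to 0.0639), and that of Ndufs3 in 9 of 12 single-library omissions.

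Higher under miR-Exo were Cox4i2 (0.65, adjusted p = 0.046), Mt-atp8 (0.26, adjusted p = 0.047), Mt-co3 (0.25, adjusted p = 0.046), Mt-cyb (0.24, adjusted p = 0.018) and Mt-co1 (0.22, adjusted p = 0.036). Each of these 5 lost its call in 4 or more single-library omissions (Cox4i2 also without the 3 libraries lowest in the component of the spread inside groups, 0.45, adjusted p = 0.121), and relative to the mitochondrial mRNA sum none of the 4 mitochondrial ones passed (0.02 to 0.06). The fitted value of -15.0 (adjusted p = 0.021) for a copy of Ndufa10l1 rests on groups at 0 counts and gives no size.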

How the results depend on the processing

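Scaling was the choice that moved most values. Outside the TMM scale and library size alone, the share of all genes called is not given. Counts of calls from those other fits therefore do not set these genes apart from the rest. With library size alone the medians by complex under NPPC-Exo and miR-Exo became 0.168 and 0.0684 (I), 0.0655 and 0.109 (II), 0.180 and 0.0882 (III), 0.194 and 0.197 (IV) and 0.307 and 0.269 (V). Over all genes the medians were 0.300 and 0.334 on that scale. The mitochondrial counts of calls became 11 and 13 with erastin under NPPC-Exo and miR-Exo, and 13 between the exosomes with erastin. The nuclear count without erastin became 10. In the same 4 comparisons library size alone called 8236, 9119, 5526 and 1840 of all 15650 genes. Signs turned for Mt-atp6 (0.15), Mt-atp8 (0.16), Mt-co1 (0.0605), Mt-cyb (0.11), Sdha (0.0562) and Sdhb (0.0748) under NPPC-Exo and for Mt-co1 (0.30), Mt-co3 (0.21) and Sdhb (0.0615) under miR-Exo. limma on log2 FPKM, scaled like library size, with pseudocounts of 1 and 0.1, gave under NPPC-Exo 0.0549 with both for Mt-co1, 0.105 with both for Mt-cyb, 0.0509 and 0.0518 for Sdha and 0.067 and 0.0682 for Sdhb, and under miR-Exo 0.29 for Mt-co1 and 0.0535 and 0.0544 for Sdhb, with 8 mitochondrial calls under NPPC-Exo, 0 for the interaction and 24 nuclear calls between the exosomes with erastin.

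Without the 3 libraries lowest in the component of the spread inside groups nuclear counts were 32 (erastin under NPPC-Exo), 25 (exosomes with erastin) and 14 (interaction), and mitochondrial counts 8, 11 and, for the interaction, within 1.5 times. Scaled to mitochondrial mRNA the mitochondrial counts were 10 under NPPC-Exo and 0 for the interaction, and Mt-atp6 between the exosomes with erastin turned to -0.11. The mitochondrial interaction count was 2 with DESeq2 size factors, 1 with no filter and 1 with the replicate block. That block, which the labels do not support, moved no other count of calls by over 1.5 times; in the fit of the groups without erastin alone it gave 10 nuclear calls. The mitochondrial share as a share of the FPKM sum was 9.07%, 9.12%, 9.53% and 11.1% in the 4 groups, and with rRNA and tRNA added 3.57% with NPPC-Exo and 3.96% with erastin and NPPC-Exo.

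Leaving out each library in turn gave nuclear counts of 9 to 24, 24 to 39, 3 to 8, 7 to 18 and 4 to 14 for erastin under NPPC-Exo and miR-Exo, the exosomes without and with erastin, and the interaction, and mitochondrial counts of 5 to 6, 6 to 10, 2 to 5 (5 without NPPC-Exo replicate 1), 3 to 7 and 0 to 5. The mitochondrial shares ranged from 3.49% to 3.53%, 3.59% to 3.74%, 3.89% to 3.90% and 4.62% to 4.87%. The alternative without unnamed rows was not run, since every row has a name. Genes under about 1 CPM, such as Cox6a2 and Ndufaf8, are limited by depth.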
